A study of Homo sapiens with 8 samples.

Results

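The untreated MT-2 culture was compared with the untreated MT-1 culture, 1 array a side, which makes 2 of the 8 arrays of the study. MT-2 is labelled as a line infected with human T cell leukaemia virus type 1 (HTLV-1), and MT-1 as a line of adult T cell leukaemia (ATL), the cancer this virus causes. Both grew in the same serum-supplemented medium, and both untreated cultures are labelled as controls. In the other 6 arrays each line had received OR21, an agent that inhibits DNA methylation, EPZ-6438 (tazemetostat), which blocks EZH2, the enzyme that writes H3K27 methylation, or the combination. MT-2 had 100 nM OR21 and 500 nM EPZ-6438 and MT-1 had 500 nM and 2500 nM, over 96 h, with each compound given at seeding and again at 48 h. These 3 treated pairs served here only to show which gaps between the lines were also there under treatment. Their doses differ between the lines, so they are not replicates of the untreated pair. Each line is a single established culture, so a gap between them is a gap between 2 cultures and not between infection and leukaemia.

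Of 21448 transcript probe sets, the 17709 with a gene symbol were compared on the log2 scale as deposited. A difference is the MT-2 level minus the MT-1 level, so a value of 1 stands for a 2-fold and a value of 4 for a 16-fold higher signal in MT-2. The background of an array was set at the 95th percentile of its negative-control probe sets, 7.80 for MT-2 and 7.46 for MT-1. A probe set above background on only 1 of the arrays was set against the background of the dim array, and its difference is then given as "at least" or, on the negative side, as "or lower". Of the 17709 probe sets, 8252 could be measured in this way: 6322 lay above background in both lines, 741 only in MT-2 and 1189 only in MT-1. The other 9457 did not count as measured. They lay above neither background, or in MT-1 between its own background and the higher one of MT-2. Both kinds are counted below as not above background in either line. Counts over gene lists are over the measured members, and a member above background in 1 line only had to differ in that direction. With 1 array per line there is no spread between replicates, so no difference here was tested. Counts over gene lists are to be read against the share of all measured probe sets that passed the same limit, 12.6% higher and 27.4% lower.

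HTLV-1 infects mainly CD4+ T cells. As background, its regulatory protein Tax turns on NF-kappaB, CREB and AP-1 dependent genes, and Tax-expressing T cells carry high levels of interleukin receptors and TNF receptor family members. Tax is often silent in leukaemic cells of ATL, which grow with other regulators, among them IRF4, BATF3 and the viral factor HBZ. MT-2 was made by growing cord blood T cells with leukaemic cells and is known to express Tax, whereas MT-1 came from a patient's leukaemia and expresses little of it. No viral transcript was analysed here.

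The labelled T cell origin was checked against 11 marker genes. Of these, 5 lay above background in MT-2 and 5 in MT-1. The CD3 chains CD3D, CD3E and CD3G, the adhesion receptor CD2 and the kinase LCK were not above background in either line. Above background in both were CD5 (10.64 in MT-2 and 12.76 in MT-1), the T cell receptor zeta chain CD247 (9.74 and 10.89), the kinase ZAP70 (9.12 and 10.37) and the adaptor LAT (7.82 and 8.61). The co-receptor CD4 lay at 12.23 in MT-2 and at 4.07 in MT-1, where it was not above background, and the pan-leukocyte phosphatase PTPRC lay at 6.24 in MT-2, not above background, and at 10.62 in MT-1. Of 8 B cell markers, 3 lay above background in MT-2 and 0 in MT-1: the kinase BLK (11.09 in MT-2 and 6.70 in MT-1), the complement receptor CR2 (10.70 and 3.86) and the transcription factor EBF1 (8.84 and 5.41). The defining B cell genes MS4A1, CD79A, CD79B and PAX5 were not above background in either. None of 9 myeloid, 8 erythroid and megakaryocyte, 7 endothelial and 7 fibroblast markers lay above background in either line, and of 9 epithelial markers 1 did, the keratin KRT8 (7.95 in MT-2 and 7.77 in MT-1). Of 9 NK cell markers, 2 did in each line, with the granule genes NKG7 (10.92 in MT-2 and 6.34 in MT-1) and PRF1 (9.48 and 7.74) higher in MT-2 and the receptor KLRC1 (3.87 and 12.02) higher in MT-1.

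Across all measured probe sets, 1043 (12.6%) were higher in MT-2 by 1 or more and 2260 (27.4%) were lower by 1 or more, while 4949 (60.0%) lay within 1. The median difference was -0.39. This surplus of lower probe sets depended on the scaling of the arrays: after quantile normalization of the 8 arrays 1389 of 8115 (17.1%) were higher and 1432 (17.6%) lower, and the median was -0.08. With each array centred on its negative controls the split was 830 higher and 2959 lower, with a median of -0.61. Calls near the limit of 1 are therefore tied to this choice. All 34 genes chosen by rank kept their side of the limit of 1 under each of 3 scalings and 2 other background levels. They were picked for large gaps, the smallest being that of ADCY1 (-3.21 or lower), so this result follows largely from the choice. The 63 probe sets for ERCC spikes, which are RNAs meant to be added in fixed amounts, had a median difference of 0.07. The 612 negative controls had one of 0.17 and the 2197 positive controls one of -0.17. Gaps of 4 or more were found for 115 probe sets higher in MT-2 (1.39% of those measured) and 66 lower (0.800%). In 77 of the 115 the MT-1 level, and in 46 of the 66 the MT-2 level, was not above background.

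**Figure D1:**
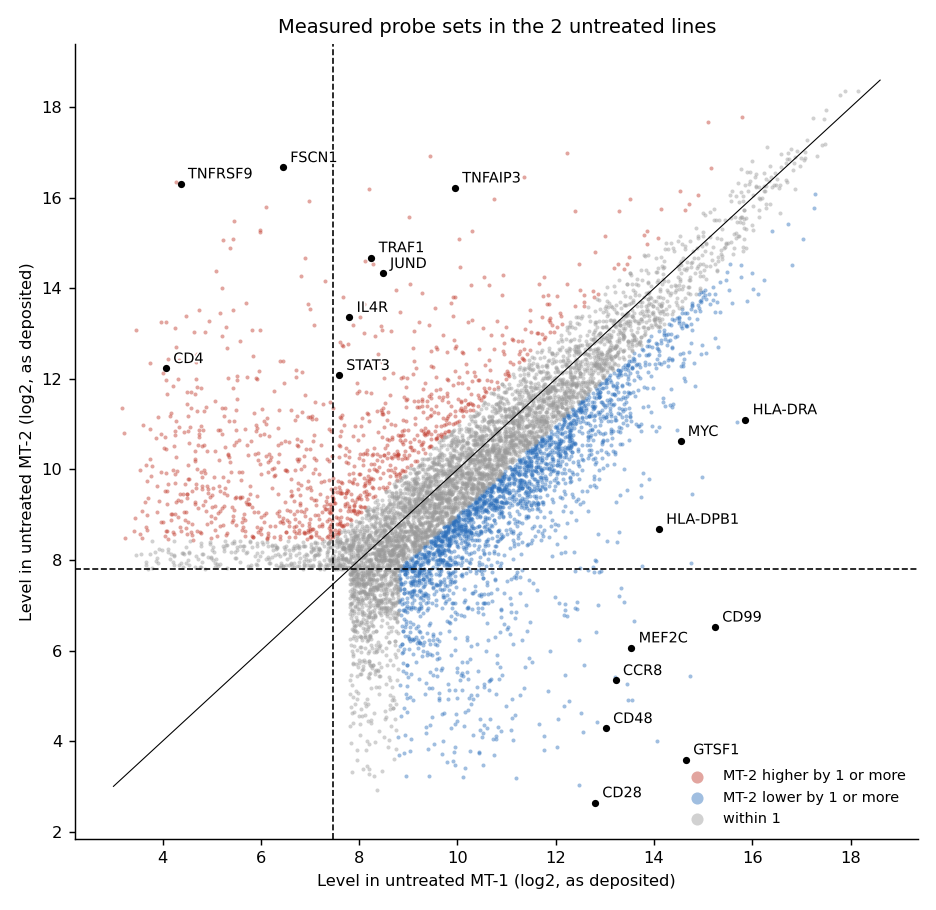
Level of each measured probe set outside chromosome Y in untreated MT-2 (vertical axis) against untreated MT-1 (horizontal axis), log2 as deposited, 1 array each. Dashed lines mark the background of each array (7.80 for MT-2 and 7.46 for MT-1) and the solid line equal levels. Red points are higher and blue points lower in MT-2 by 1 or more under the background rule, and grey points lie within 1. TNFRSF9 and FSCN1 sit near the top of the MT-2 range and below the MT-1 background, and CD99 and GTSF1 the other way round.

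The 12 largest gaps towards MT-2 that were also 1 or more in all 3 treated pairs came from genes of varied function. The actin-bundling protein FSCN1 (fascin) lay at 16.67 in MT-2 and 6.45 in MT-1, a gap of at least 9.21. The tetraspanin CD9 lay at 16.35 in MT-2 and 4.28 in MT-1, a gap of at least 8.90. The costimulatory receptor TNFRSF9 (4-1BB) lay at 16.31 in MT-2 and 4.37 in MT-1, a gap of at least 8.85. In all of these the MT-1 level was not above background while the MT-2 level stood close to the top of the scale. The fatty acid desaturase FADS2 (15.92 in MT-2 and 6.98 in MT-1), the synaptic fusion protein SNAP25 (15.80 and 6.11) and the transcriptional regulator TOX (15.48 and 5.46) differed by at least 8.46, 8.34 and 8.02. The helix-loop-helix inhibitor ID2 was above background in both lines, at 16.19 in MT-2 and 8.20 in MT-1, a measured gap of 7.99. ALOX5AP, which presents arachidonic acid to 5-lipoxygenase for leukotriene synthesis, lay at 15.29 in MT-2 and 5.98 in MT-1. The membrane protein EMP3 lay at 15.25 in MT-2 and 5.98 in MT-1. IL9R, the receptor for interleukin 9, lay at 15.10 in MT-2 and 5.43 in MT-1. The calponin CNN3 (15.07 in MT-2 and 5.22 in MT-1) and the histone H4 gene H4C5 (16.92 and 9.44) closed the set with gaps of at least 7.61 and of 7.47. H4 genes are near-identical in coding sequence, so which copy H4C5 reports is uncertain.

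Towards MT-1 the largest such gap was that of CD99, an adhesion glycoprotein of the leukocyte surface, at 6.52 in MT-2, not above background, and 15.24 in MT-1, a difference of -7.44 or lower. RGS13, which damps signalling through G protein-coupled receptors, lay at 5.44 in MT-2 and 14.73 in MT-1. GTSF1, a factor of the germline piRNA pathway, lay at 3.59 in MT-2 and 14.65 in MT-1. All 3 genes thus had a strong signal in MT-1 and none above background in MT-2. The carbonic anhydrase CA2 was above background in both, at 7.94 in MT-2, close to the background of 7.80, and 14.76 in MT-1. Its difference was -6.82. CYTIP, which regulates integrin adhesion through cytohesin, lay at 4.0 in MT-2 and 14.06 in MT-1. The tubulin gene TUBA3C lay at 7.86 in MT-2, close to the background of 7.80, and 13.76 in MT-1. The water and glycerol channel AQP3 (6.65 in MT-2 and 13.60 in MT-1), the G13-coupled receptor P2RY8 (4.90 and 13.55) and the transcription factor MEF2C (6.06 and 13.54) differed by -5.80, -5.75 and -5.74 or lower. The lipid transfer protein OSBPL10 (4.90 in MT-2 and 13.47 in MT-1), the vesicle priming protein UNC13C (5.25 and 13.44) and the interleukin 23 receptor IL23R (7.07 and 13.39) completed the 12. Each side thus held 1 interleukin receptor, IL9R on that of MT-2 and IL23R on that of MT-1.

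**Figure D2:**
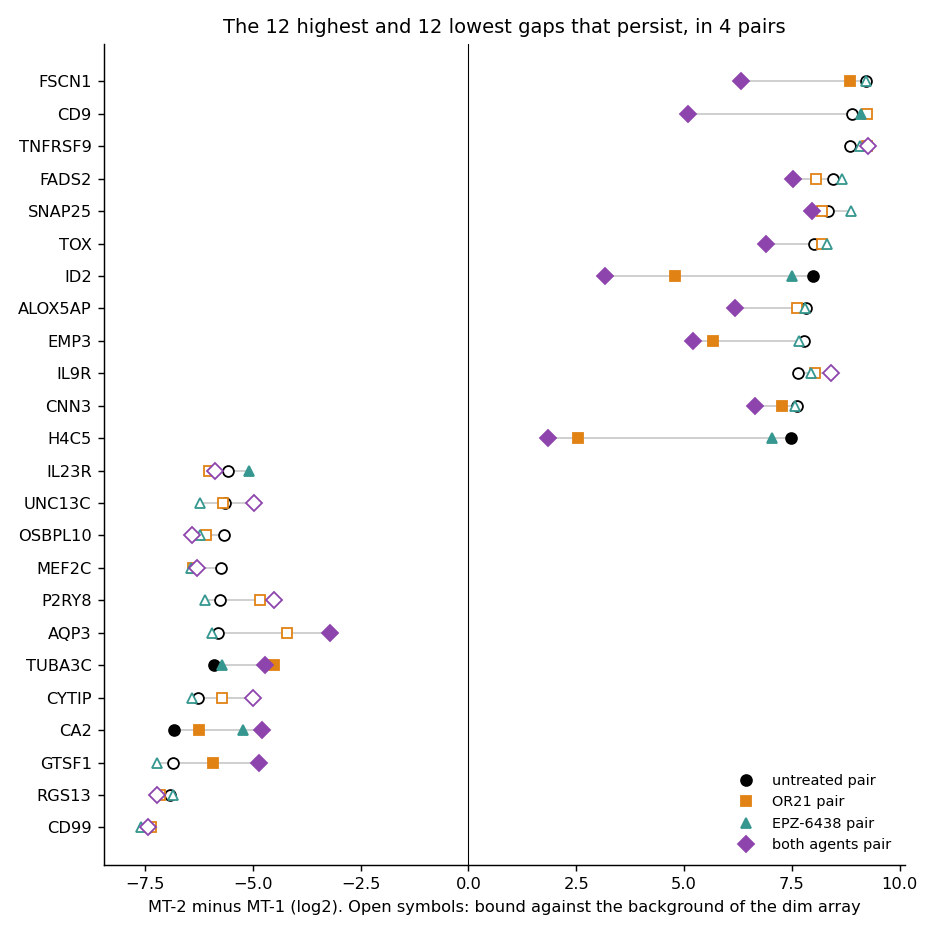
Difference MT-2 minus MT-1 (log2, horizontal axis) for the 12 highest and the 12 lowest gaps that were 1 or more in all treated pairs, in the untreated, OR21, EPZ-6438 and combination pairs, 1 array per line and condition. Open symbols are bounds against the background of the dim array and filled symbols are measured. TNFRSF9 and IL9R keep their gap in all 4 pairs, whereas ID2 and H4C5 stand at 3.17 and 1.85 in the combination pair.

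The NF-kappaB transcription factors act as dimers that are held in the cytoplasm by inhibitor proteins, and several of their target genes encode those inhibitors. Of 28 measured members of the list of NF-kappaB genes and targets, 14 (50%, against 12.6% of all measured probe sets) were higher in MT-2 and 3 (10.7%, against 27.4%) lower, with a median difference of 1.0. Of the subunits, REL lay at 13.47 in MT-2 and 8.83 in MT-1, a gap of 4.65, and RELB at 12.01 in MT-2 and 8.85 in MT-1, a gap of 3.16. RELA (0.15), NFKB1 (-0.24) and NFKB2 (-0.69) differed by less than 1. The higher signal thus lay with 2 of 5 subunits. Among inhibitors, TNFAIP3 (A20), a ubiquitin-editing enzyme that shuts the pathway down, lay at 16.22 in MT-2 and 9.95 in MT-1, a gap of 6.27. NFKBIA, which encodes the inhibitor IkappaBalpha, lay at 15.70 in MT-2 and 12.39 in MT-1, a gap of 3.31. NFKBIE differed by -0.01. The adaptor TRAF1 lay at 14.68 in MT-2 and 8.25 in MT-1, a gap of 6.43, and the adhesion molecule ICAM1 at 14.68 in MT-2 and 6.89 in MT-1, a gap of at least 7.22. All 6 of these genes with gaps above 3 kept a gap of 2.97 or more in each treated pair. On the other side, MAP3K14 (NIK), the kinase that starts the non-canonical arm, was lower, with a difference of -1.46 or lower, and so were the chemokines CCL5 (-5.07 or lower) and CXCL8 (-1.82 or lower). MALT1, the protease that links antigen receptors to NF-kappaB and a gene chosen after its values were seen, lay at 7.76 in MT-2, not above background, and 12.92 in MT-1.

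Promoter windows of 300 bases, from 250 before to 50 after an annotated transcription start, were taken from RefSeq (GRCh38.p14) and searched on both strands for the kappaB consensus, for AP-1 (TGANTCA) and for the CRE (TGACGTCA). Windows of 84 of the 115 genes higher in MT-2 by 4 or more were given, 143 windows in all, and of 52 of the 65 genes lower by 4 or more, 96 windows. The kappaB consensus was found in 12 (8.39%) of the windows of genes higher in MT-2 and in 3 (3.12%) of those of genes lower in MT-2, against 6.74% of the 10177 windows of all measured genes and 5.91% of all 35116 windows. AP-1 was found in 9.09% of the windows on the higher side and 9.38% on the lower side, against 4.77% for measured genes. The CRE was found in 2.80% and in 0, against 3.08%. With the limit at 2 in place of 4, the kappaB shares were 8.74% and 4.28%, and the AP-1 shares 8.28% and 5.03%. A match is a string of letters and not a shown binding site, and no difference between these shares was tested. The 12 genes with the kappaB match and a gap of 4 or more towards MT-2 were CRIP1, ETS2, GYS1, HMGCS1, IL4R, MYADM, REL, SDC4, SGPP2, SLC37A1, TNFAIP3 and TNFRSF9.

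The windows of TNFRSF9, TNFAIP3 and REL are shown because they hold the kappaB match in genes with large gaps towards MT-2, that of the phosphatase gene DUSP1 for its CRE, and that of MEF2C as a gene with a large gap towards MT-1. The MEF2C window was picked from the 7 of that gene for its matches, so it does not stand for the windows of genes lower in MT-2. Capitals mark the matches to any of the 3 motifs, and each window is read 5′ to 3′ on the strand of its gene.
TNFRSF9, chr1:7940790-7941089, minus strand: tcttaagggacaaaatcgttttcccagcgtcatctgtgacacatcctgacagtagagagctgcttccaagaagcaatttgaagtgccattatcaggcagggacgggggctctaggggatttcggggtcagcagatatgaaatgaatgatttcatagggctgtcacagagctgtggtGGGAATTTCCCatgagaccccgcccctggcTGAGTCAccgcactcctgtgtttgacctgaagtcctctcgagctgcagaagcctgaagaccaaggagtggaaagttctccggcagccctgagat
TNFAIP3, chr6:137867009-137867308, plus strand: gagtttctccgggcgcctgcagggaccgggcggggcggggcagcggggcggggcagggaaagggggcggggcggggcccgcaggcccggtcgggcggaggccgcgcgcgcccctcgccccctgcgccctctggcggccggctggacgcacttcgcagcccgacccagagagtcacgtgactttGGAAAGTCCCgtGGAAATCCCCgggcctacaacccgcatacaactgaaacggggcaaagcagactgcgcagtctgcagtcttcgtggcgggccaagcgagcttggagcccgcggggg
REL, chr2:60881324-60881623, plus strand: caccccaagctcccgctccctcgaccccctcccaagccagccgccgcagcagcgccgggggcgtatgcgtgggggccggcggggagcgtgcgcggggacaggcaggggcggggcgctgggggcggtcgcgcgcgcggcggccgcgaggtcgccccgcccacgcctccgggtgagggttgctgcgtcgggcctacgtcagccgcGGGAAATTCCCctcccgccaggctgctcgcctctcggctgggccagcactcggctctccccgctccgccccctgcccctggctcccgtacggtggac
DUSP1, chr5:172771146-172771445, minus strand: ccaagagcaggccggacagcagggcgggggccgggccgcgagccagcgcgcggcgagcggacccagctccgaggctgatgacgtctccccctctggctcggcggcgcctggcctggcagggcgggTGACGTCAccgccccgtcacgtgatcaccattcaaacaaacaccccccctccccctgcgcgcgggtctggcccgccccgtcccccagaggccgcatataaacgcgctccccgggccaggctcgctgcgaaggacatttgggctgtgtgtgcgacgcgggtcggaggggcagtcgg
MEF2C, 1 of its 7 windows, chr5:88785462-88785761, minus strand: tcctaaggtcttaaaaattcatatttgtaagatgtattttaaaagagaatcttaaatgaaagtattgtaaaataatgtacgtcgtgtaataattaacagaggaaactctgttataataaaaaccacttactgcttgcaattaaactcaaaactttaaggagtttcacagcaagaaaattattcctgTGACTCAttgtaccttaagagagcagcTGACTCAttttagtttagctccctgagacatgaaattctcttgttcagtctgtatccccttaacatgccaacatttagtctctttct

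In TNFRSF9 the 2 overlapping kappaB matches begin 74 and 73 bases before it and the AP-1 match 44 bases before it. TNFAIP3 holds 2 kappaB matches side by side, beginning 67 and 55 bases before the start. REL, itself an NF-kappaB subunit, holds 2 overlapping matches from 47 bases before the start. DUSP1, a gene chosen after its values were seen, lay at 14.27 in MT-2 and 6.81 in MT-1, a gap of at least 6.81, and its CRE begins 125 bases before the start. The shown MEF2C window holds 2 AP-1 matches and no kappaB match, and MEF2C also has a kappaB match in another of its windows.

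**Figure D3:**
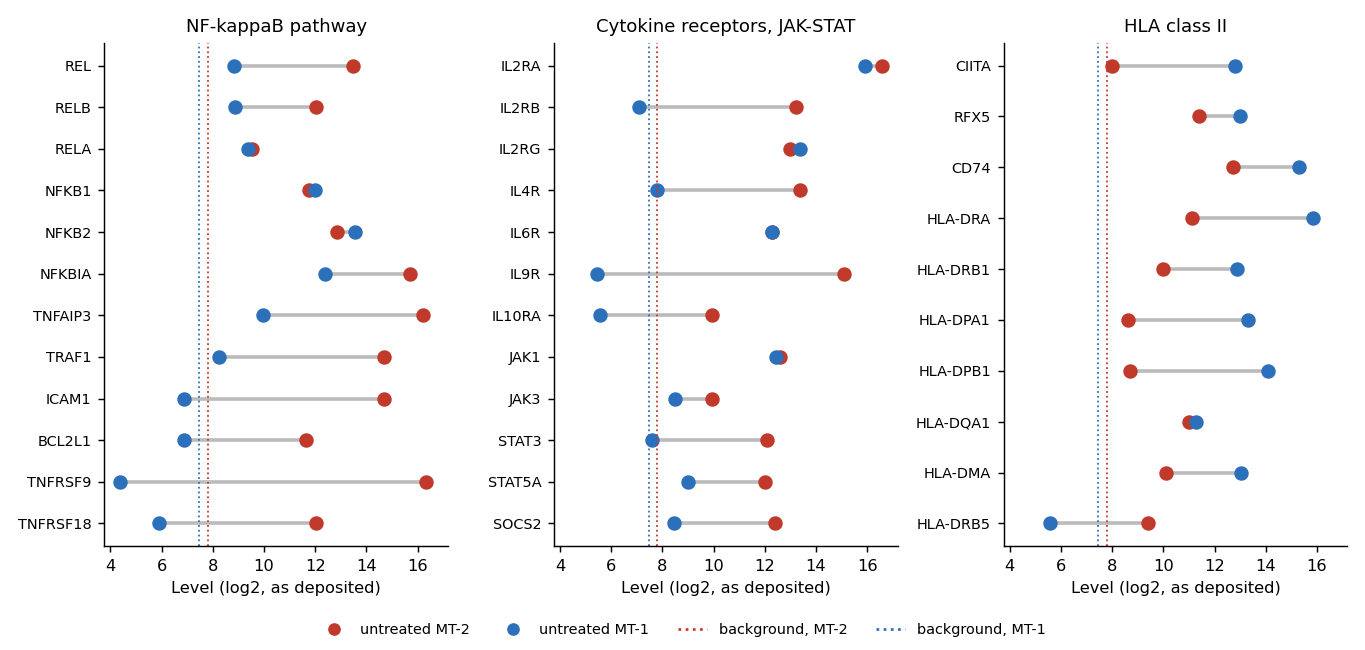
Levels (log2 as deposited, horizontal axis) in untreated MT-2 (red) and untreated MT-1 (blue) of NF-kappaB pathway genes, of cytokine receptor and JAK-STAT genes and of HLA class II genes, 1 array per line. Dotted lines are the background of each array. In the first and second panels the red point lies right of the blue one except for NFKB1, NFKB2, IL2RG and IL6R, and among the HLA class II genes drawn only HLA-DRB5 has the red point on the right.

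TNF receptor family members give T cells costimulatory and death signals. Of 16 measured members and ligands, 7 (43.8%, against 12.6%) were higher in MT-2 and 1 (6.25%, against 27.4%) lower, with a median difference of 0.87. Next to TNFRSF9, TNFRSF18 (GITR) lay at 12.02 in MT-2 and 5.90 in MT-1, a gap of at least 4.56. TNFRSF4 (OX40) lay at 10.53 in MT-2 and 4.73 in MT-1, a gap of at least 3.07. TNFRSF8 (CD30) was high in both lines, at 12.26 in MT-2 and 11.63 in MT-1. Of the measured receptors that can signal death, TNFRSF10B was higher by 1.45 and TNFRSF25 was lower, with a difference of -1.46 or lower. FAS (-0.98), TNFRSF1A (0.61) and TNFRSF10A (-0.03 or lower) were not called. Of the ligands, TNFSF14 (LIGHT) was higher by 2.60 and CD70 by 2.15, and TNFSF10 (TRAIL) by at least 2.31. Across receptors and ligands, TNFRSF25 was the only member called lower.

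Many interleukin receptors, though not all in the list used here, signal through JAK kinases and STAT factors. Of 30 measured members of this list, 18 (60.0%, against 12.6%) were higher in MT-2 and 0 (against 27.4%) lower, with a median difference of 1.20, and 14 of the 18 were also higher by 1 or more in all treated pairs. Under the 3 other scalings 15 to 19 of these 30 were higher and again 0 lower. IL23R was not in the list and was lower, at 7.07 in MT-2, not above background, and 13.39 in MT-1. Among receptors, IL4R lay at 13.36 in MT-2 and 7.80 in MT-1, a gap of 5.56. IL2RB, the beta chain of the interleukin 2 receptor, lay at 13.20 in MT-2 and 7.09 in MT-1, a gap of at least 5.74. The other chains did not follow it: IL2RA (CD25) lay at 16.58 in MT-2 and 15.89 in MT-1, and IL2RG at 12.98 in MT-2 and 13.37 in MT-1. Thus only the beta chain of this receptor was called. The decoy receptor IL1R2 was higher by 4.11 and the interferon gamma receptor chain IFNGR2 by 2.15, and IL6R differed by -0.01. Of the signal carriers, STAT3 lay at 12.08 in MT-2 and 7.59 in MT-1, a gap of 4.49, and STAT5A at 12.02 in MT-2 and 8.98 in MT-1, a gap of 3.05. JAK3 (1.44), TYK2 (1.54) and STAT5B (1.12) were higher by less, and JAK1 differed by 0.15. The STAT targets SOCS2 (12.38 in MT-2 and 8.46 in MT-1) and PIM1 (11.19 and 6.74) were higher by 3.91 and by at least 3.74. In JAK2, SOCS3 and IL7R neither line was above background.

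Most cytokine genes gave no signal above background. Of 27 on the array, 19 were not above background in either, among them IL2, IL4, IL13 and IFNG. Of the 8 measured, 5 (62.5%, against 12.6%) were higher in MT-2 and 2 (25%, against 27.4%) lower. Interleukin 10 (IL10), a suppressive cytokine, lay at 13.07 in MT-2 and 3.46 in MT-1, a gap of at least 5.62, and of at least 6.86, 6.87 and 7.59 in the OR21, EPZ-6438 and combination pairs. Macrophage colony-stimulating factor CSF1 was higher by at least 2.48. IL32 lay at 13.97 in MT-2 and 12.49 in MT-1. On the other side stood TGFB1 (-2.45), which encodes another suppressive cytokine, and IL16 (-2.36 or lower). Of 8 measured chemokines, 3 were higher in MT-2 and 2 lower. The follicular chemokine CXCL13 lay at 13.26 in MT-2 and 3.96 in MT-1, CCL3 at 13.15 in MT-2 and 5.30 in MT-1, and CCL1 at 10.23 in MT-2 and 4.66 in MT-1. CCL5 (RANTES) was the largest gap the other way, at 7.74 in MT-2, not above background, and 12.88 in MT-1. CXCL10 was above background in both lines, at 10.64 in MT-2 and 11.33 in MT-1. CCL3 probes can share sequence with near-identical copies of the gene.

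Of 9 measured chemokine receptors, 3 (33.3%, against 12.6%) were higher in MT-2 and 3 (33.3%, against 27.4%) lower. ACKR3, a scavenger of CXCL12, lay at 13.03 in MT-2 and 4.86 in MT-1, and the CXCL12 receptor CXCR4 at 14.54 in MT-2 and 12.48 in MT-1. CCR4, the receptor that anti-ATL antibodies target, was lower at 9.66 in MT-2 and 12.77 in MT-1, a difference of -3.11. CCR8 lay at 5.34 in MT-2 and 13.22 in MT-1, a difference of -5.42 or lower. S1PR1, which guides T cells out of lymph nodes, lay at 11.77 in MT-2 and 14.34 in MT-1, a difference of -2.57. CCR7 was high in both, at 16.38 in MT-2 and 15.95 in MT-1.

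Among genes tied to ATL, the factors of the IRF4 circuit were not uniformly different. IRF4 lay at 15.01 in MT-2 and 15.05 in MT-1. BATF3 lay at 13.87 in MT-2 and 14.86 in MT-1. MYC lay at 10.62 in MT-2 and 14.54 in MT-1, a difference of -3.93 that was -3.45, -3.88 and -2.66 in the OR21, EPZ-6438 and combination pairs. BATF, a partner of IRF4 in T cells, was the opposite, at 12.05 in MT-2 and 5.71 in MT-1. The ATL surface marker CADM1 lay at 13.15 in MT-2 and 12.26 in MT-1. Cyclin D2 (CCND2), a known Tax-responsive gene, lay at 17.68 in MT-2 and 15.10 in MT-1, a gap of 2.59. Over the list, 7 of 22 measured (31.8%, against 12.6%) were higher in MT-2 and 4 (18.2%, against 27.4%) lower.

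Of 22 genes of T cell surface molecules on the array, 11 were not above background in either line. Of the 11 measured, 1 (9.09%) was higher and 6 (54.5%, against 27.4%) lower, with a median of -1.43. The costimulatory receptor CD28 lay at 2.64 in MT-2, not above background, and 12.80 in MT-1, a difference of -4.99 or lower. CD48, a ligand of the SLAM family, lay at 4.28 in MT-2 and 13.02 in MT-1. CD6 (-2.44 or lower), SPN (-2.16 or lower), CD5 (-2.12) and TIGIT (-1.43 or lower) were the others. The hyaluronan receptor CD44 was the member called higher, at 11.08 in MT-2 and 5.35 in MT-1. CD28 and CD48 differed in their course: the CD28 difference was -1.08 or lower in the combination pair, whereas that of CD48 was -5.79 or lower. Among signalling genes of the T cell receptor, 5 of 10 measured were higher in MT-2 and 2 lower, with RASGRP1, the exchange factor that carries the signal to Ras, higher by 3.56.

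Of 19 measured T lineage transcription factors, 12 (63.2%, against 12.6%) were higher in MT-2 and 3 (15.8%, against 27.4%) lower, and a median of 1.38. TBX21 (T-bet), the factor of type 1 helper cells, lay at 10.40 in MT-2 and 4.65 in MT-1, a gap of at least 2.94. RORA (2.96), NFATC2 (2.46), RUNX1 (2.05) and ETS1 (1.38) were higher with both lines above background. NR4A1, an orphan nuclear receptor induced by antigen receptor signals, lay at 14.17 in MT-2 and 7.30 in MT-1. The WNT pathway factor LEF1 (9.84 in MT-2 and 12.28 in MT-1) and the chromatin organiser SATB1 (10.80 and 13.00) had differences of -2.44 and -2.20. GATA3, the factor of type 2 helper cells, was above background only in MT-1, with a difference of -0.87 or lower. FOXP3, BCL11B and EOMES were not above background in either line.

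HLA class II molecules present peptides to CD4+ T cells, and activated human T cells make them under the master regulator CIITA. Of 15 measured genes of this pathway, 9 (60.0%, against 27.4%) were lower in MT-2 and 2 (13.3%) higher, with a median of -1.61, and 8 of the 9 were lower by 1 or more in all treated pairs. CIITA lay at 8.01 in MT-2 and 12.79 in MT-1, a difference of -4.78. HLA-DRA lay at 11.10 in MT-2 and 15.86 in MT-1, HLA-DPA1 at 8.62 in MT-2 and 13.29 in MT-1, and HLA-DPB1 at 8.68 in MT-2 and 14.10 in MT-1. The invariant chain CD74 (-2.59), the peptide exchanger HLA-DMA (-2.95) and HLA-DRB1 (-2.89) were lower by less, and so was RFX5 (-1.61), a subunit of the factor that binds class II promoters. Called higher were HLA-DRB5, at 9.39 in MT-2 and 5.57 in MT-1, and the lysosomal protease CTSS, at 8.65 in MT-2 and 6.68 in MT-1. The other 4, HLA-DQA1 (-0.27), HLA-DQB1 (-0.14 or lower), HLA-DOA (-0.66 or lower) and RFXAP (at least 0.35), were not called. HLA-DRB5 is carried on some haplotypes only, HLA genes vary between people and the DRB copies are alike, so signals of single HLA probe sets can reflect the alleles of each line. The non-polymorphic CIITA, CD74 and RFX5 do not carry this limit.

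HLA class I presentation showed no such shift: 3 of 19 measured (15.8%) were higher and 5 (26.3%) lower, shares near those of all probe sets. The light chain B2M lay at 17.12 in MT-2 and 16.29 in MT-1. The peptide transporter TAP1 was higher by 2.42, and the immunoproteasome subunits PSMB8 (-1.68) and PSMB10 (-2.75 or lower) were lower while PSMB9 differed by 0.40. Of 35 interferon-stimulated genes on the array, 22 were not above background in either line, among them IFIT1, MX1, OAS1 and RSAD2. Of the 13 measured, 5 (38.5%, against 12.6%) were higher and 3 (23.1%, against 27.4%) lower. TRIM22 lay at 9.58 in MT-2 and 4.67 in MT-1 and IFITM2 at 8.82 in MT-2 and 11.17 in MT-1.

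Of 24 measured genes of the actin cytoskeleton, 12 (50%, against 12.6%) were higher in MT-2 and 6 (25%, against 27.4%) lower. Next to FSCN1 and CNN3, the nuclear lamina gene LMNA lay at 14.60 in MT-2 and 8.12 in MT-1, a gap of 6.48, and the caveolin CAV1 at 12.12 in MT-2 and 8.69 in MT-1, a gap of 3.43. The calcium-binding S100A10 (12.70 in MT-2 and 4.28 in MT-1), S100A11 (14.01 and 5.20) and S100A4 (10.55 and 5.46) were not above background in MT-1. Actinin 1 (ACTN1, -2.47) and ezrin (EZR, -1.38) were lower, while moesin (MSN), the close relative of ezrin, was higher by 1.78. Of 23 measured adhesion genes, 9 (39.1%) were higher, all 9 also in the treated pairs, and 5 (21.7%) lower. CD58, the ligand of CD2, lay at 12.81 in MT-2 and 7.61 in MT-1, and the tetraspanin CD82 at 12.40 in MT-2 and 6.38 in MT-1. Of the integrin chains, ITGB1 (at least 2.47), ITGB2 (at least 1.29) and ITGAV (at least 1.23) were higher, and ITGAE (-2.91 or lower) and ITGAL were lower. ITGAL, the alpha chain of LFA-1 that binds ICAM1, lay at 4.57 in MT-2, not above background, and 11.17 in MT-1. The LFA-1 ligand ICAM1 and its receptor chain ITGAL thus lay on opposite sides.

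**Figure D4:**
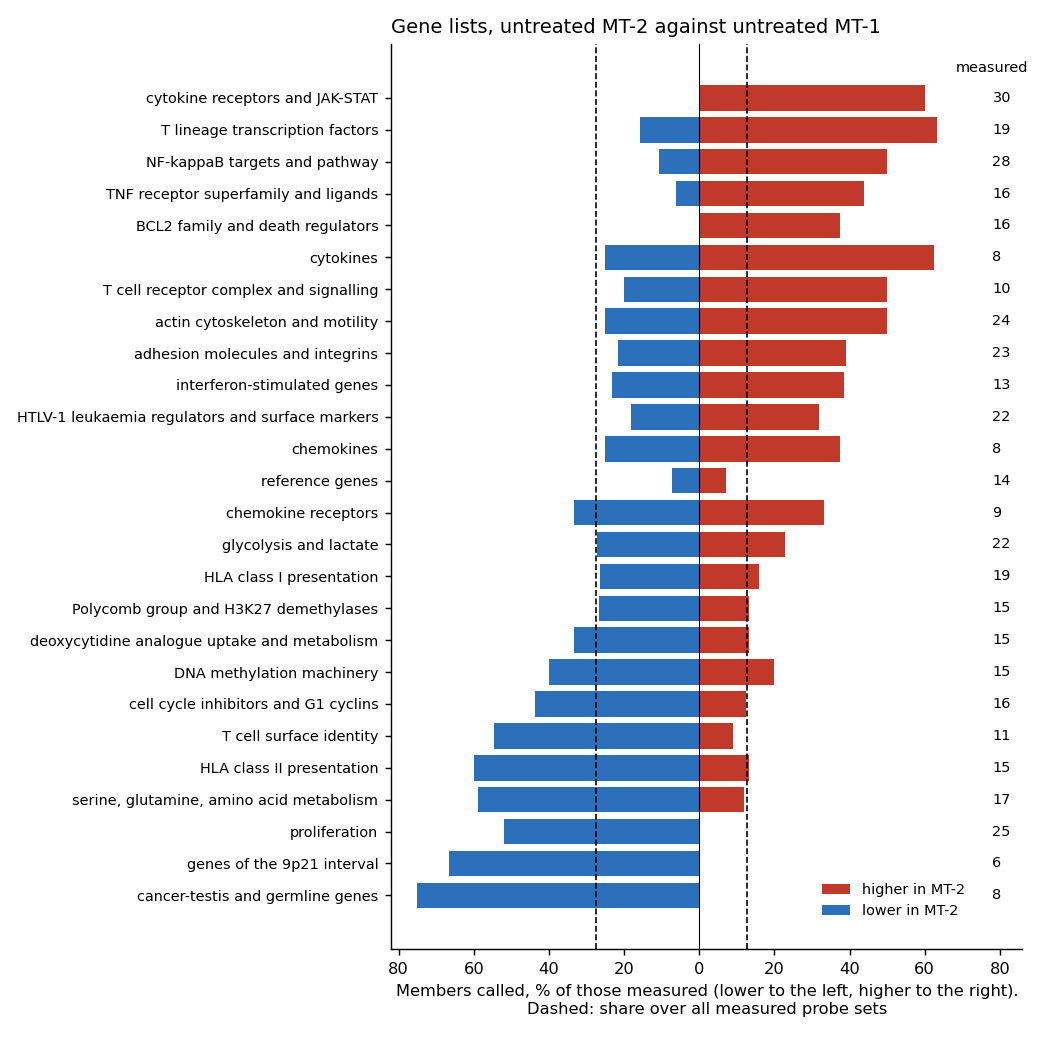
Share of the measured members of each gene list (numbers at the right) that were higher in MT-2 (right, red) or lower in MT-2 (left, blue) by 1 or more, 1 array per line. Dashed lines are the shares over all measured probe sets, 12.6% higher and 27.4% lower. Cytokine receptor and JAK-STAT genes, a list without IL23R, have 60.0% higher and none lower, and proliferation genes 52.0% lower and none higher.

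Proliferation genes were lower in MT-2 or within 1 of MT-1. All 25 proliferation genes were above background in both lines, and 13 (52.0%) were lower by 1 or more and 0 higher, with a median of -1.02. After quantile normalization 5 were lower and 1 higher, with a median of -0.60, so the count follows the scaling while the sign of the median does not. Ribonucleotide reductase RRM2 lay at 12.58 in MT-2 and 15.06 in MT-1, the mitotic activator CDC20 at 12.54 in MT-2 and 14.96 in MT-1, and survivin (BIRC5) at 8.49 in MT-2 and 10.89 in MT-1. The replication clamp PCNA (0.27), the helicase subunit MCM7 (-0.04) and the kinase AURKA (-0.27) lay within 1. Of 16 measured cell cycle inhibitors and G1 regulators, 2 (12.5%, against 12.6%) were higher and 7 (43.8%, against 27.4%) lower. The CDK inhibitor CDKN1A (p21) lay at 12.41 in MT-2 and 4.33 in MT-1, a gap of at least 4.95 that was 3.73 or more in each treated pair. Cyclin E1 (CCNE1) lay at 8.17 in MT-2 and 12.37 in MT-1, a difference of -4.21. E2F2 had a difference of -2.51 or lower, with the MT-2 level not above background. CDKN2A was lower at 8.17 in MT-2 and 9.64 in MT-1. Its neighbours at 9p21, an interval often lost in leukaemia, included MTAP and CDKN2B, which were not above background in either line, and FOCAD (-2.04 or lower), HACD4 (-2.35 or lower) and MLLT3 (-1.42), which were lower. CAAP1 (0.19) and PLAA (0.37) differed by less than 1.

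Of 16 measured regulators of cell death, 6 (37.5%, against 12.6%) were higher in MT-2, 3 of them also in all treated pairs, and 0 (against 27.4%) were lower. The anti-death protein BCL2L1 (BCL-XL) lay at 11.64 in MT-2 and 6.89 in MT-1, a gap of at least 4.19, and the pro-death BID at 11.38 in MT-2 and 4.88 in MT-1, a gap of at least 3.92. BIRC2 (1.76) and CFLAR (1.21), which restrain caspase activation, and BAX (1.10), which opens mitochondria, were higher by less. BCL2 (-0.91) and MCL1 (0.92) differed by under 1.

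The lines were compared for the genes that the 2 agents act on. DNMT1, the maintenance methyltransferase, lay at 10.58 in MT-2 and 12.37 in MT-1, a difference of -1.80. DNMT3A differed by -0.10 and UHRF1, which guides DNMT1, by 0.04, and DNMT3B was not above background in either line. The methyl-CpG binder MBD2 had a difference of -1.68, and the demethylases TET2 and TET3 were higher by at least 1.08 and 1.99. Of 15 measured methylation genes, 3 (20%, against 12.6%) were higher and 6 (40.0%, against 27.4%) lower, with a median of -0.10 that became 0.18 after quantile normalization. EZH2, the target of EPZ-6438, lay at 12.36 in MT-2 and 13.18 in MT-1. Its partner SUZ12 was lower at 10.44 in MT-2 and 12.93 in MT-1, a difference of -2.50, and MTF2 had one of -2.09. The H3K27 demethylase KDM6B lay at 10.52 in MT-2 and 6.75 in MT-1, a gap of at least 3.06. For drugs of the deoxycytidine type, the nucleoside transporters SLC29A1 (-1.72) and SLC29A2 (-2.72 or lower) were lower in MT-2, the activating kinase DCK differed by -0.51 and SAMHD1, which breaks down the active form, by 0.00. The deaminase CDA was not above background in either line. RRM2B, the p53-responsive subunit of ribonucleotide reductase, was higher by 2.49, opposite to RRM2.

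Cancer-testis genes, which are silent in most adult tissues outside the germline, were, where measured, mostly above background in MT-1 alone. Of 30 on the array, 22 were not above background in either line, and of the 8 measured 6 (75.0%) were lower in MT-2 and 0 higher, with a median of -3.94. MAGEA4 lay at 6.40 in MT-2 and 12.82 in MT-1, CTAG2 at 4.49 in MT-2 and 12.04 in MT-1, and MAGEA3 at 6.91 in MT-2 and 12.43 in MT-1, and none of them was above background in MT-2. PRAME was above background in both, at 9.60 in MT-2 and 11.28 in MT-1. MAGEA3 and MAGEA6 are near-identical, as are CTAG genes, so which copy gave the signal is uncertain.

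Genes of amino acid metabolism lay mostly lower in MT-2. Of 17 measured, 10 (58.8%) were lower and 2 (11.8%) higher, with a median of -1.48. The branched-chain transaminase BCAT1 lay at 8.40 in MT-2 and 13.24 in MT-1, a difference of -4.85. PHGDH, the first enzyme of serine synthesis, lay at 10.87 in MT-2 and 14.46 in MT-1, and PSAT1, the next, at 12.60 in MT-2 and 14.71 in MT-1. The transaminases GOT1 (-2.78) and GOT2 (-2.94) and the glutamine transporter SLC1A5 (-1.93) were lower too. The members called higher were ASS1, which makes argininosuccinate, at 10.82 in MT-2 and 4.43 in MT-1, and glutamine synthetase GLUL, at 11.72 in MT-2 and 4.57 in MT-1. Of 22 glycolysis genes, 5 (22.7%, against 12.6%) were higher and 6 (27.3%, against 27.4%) lower, with a median of -0.05. Hexokinase HK1 had a difference of 2.41 and HK2 one of -1.93 or lower. Of 14 reference genes, 12 lay within 1, with GAPDH at 18.27 in MT-2 and 17.79 in MT-1, and the transferrin receptor TFRC (2.42) and GUSB (-1.37) were the exceptions.

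Of the 1043 probe sets higher in MT-2, 694 (66.5%) were also higher by 1 or more in all 3 treated pairs, and of the 2260 lower, 1197 (53.0%) were also lower in all 3. By pair, 80.5% of those higher kept this in the OR21 pair, 85.6% in the EPZ-6438 pair and 73.1% in the combination pair, and of those lower 74.8%, 81.2% and 59.2%. Size went with persistence: of gaps of 4 or more, 109 of 115 and 66 of 66 persisted, whereas of gaps between 1 and 2, 284 of 575 (49.4%) and 684 of 1644 (41.6%) did. Of the large gaps that persisted, 65 and 39 stayed at 4 or more in every pair. A large gap also has further to go before it passes under the limit of 1. In the combination pair, 11 of those higher and 9 of those lower were 1 or more in the opposite direction.

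The largest gaps that did not persist were under 1 or reversed in the combination pair, apart from SEPTIN1, where the value there is only a bound. S100A11 differed by at least 6.55 untreated and by 0.83 there, with levels of 15.25 in MT-2 and 14.43 in MT-1. IL2RB differed by 0.56 there (13.17 in MT-2 and 12.61 in MT-1), the lysosomal membrane protein LAPTM5 by 0.84 (13.32 and 12.48), and ZSWIM6 by -0.56 (11.99 and 12.55). In these 4 genes the MT-1 level of the combination culture thus stood within 1 of the MT-2 level, whereas in 3 of them the untreated MT-1 level was not above background. GLUL differed by at least 4.26 untreated and by -2.15 in the combination pair (11.72 in MT-2 and 13.87 in MT-1). On the other side, the oxysterol hydroxylase CYP7B1 differed by -3.67 untreated and -0.36 in the combination pair, IFRD2 by -3.54 and -0.51, SEPTIN1 by -3.47 or lower and -0.71 or lower, CHRNA6 by -3.28 or lower and -0.83, and adenylate cyclase ADCY1 by -3.21 or lower and -0.51. Doses differ between the lines, so these values do not compare their responses.

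By chromosome, the genes of 13, 21 and 20 stood higher in MT-2 than the rest. On chromosome 13, 46 of 146 measured (31.5%, against 12.6%) were higher and 9 lower, and the median lay 1.03 above that of all measured probe sets. The same relative median was 0.97, 1.02 and 1.12 in the OR21, EPZ-6438 and combination pairs. On chromosome 21, 32 of 90 (35.6%) were higher, with a relative median of 0.87, and of 0.82, 0.74 and 1.04 in the treated pairs. Chromosome 20 had a relative median of 0.49, with 44 of 235 higher (18.7%) and 20 lower (8.51%). The lowest was chromosome 18, where 55 of 123 (44.7%, against 27.4%) were lower and the relative median was -0.43, and -0.55, -0.54 and -0.50 in the treated pairs. Chromosomes 1 (-0.30), 3 (-0.29) and 16 (-0.26) followed. Over probe sets above background in both lines the relative medians of 13, 21, 20 and 18 were 0.93, 0.80, 0.48 and -0.50, and after quantile normalization 0.95, 0.84, 0.60 and -0.50. Both lines come from different people and carry their own karyotypes, copy number was not measured, and its part in these shifts was not tested.

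**Figure D5:**
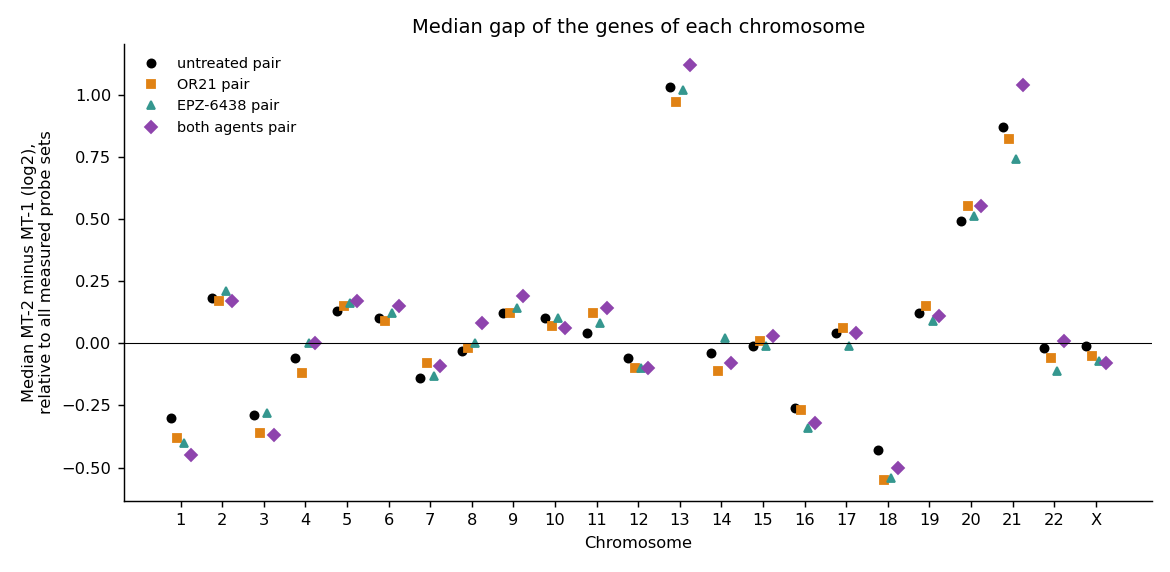
Median difference MT-2 minus MT-1 (log2) of the measured genes of each chromosome, relative to the median of all measured probe sets in that pair, for the untreated, OR21, EPZ-6438 and combination pairs, 1 array per line and condition. Chromosomes 13, 21 and 20 lie above 0 and chromosome 18 below it in all 4 pairs.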

How the data were processed

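Total RNA, treated with DNase, was turned into biotin-labelled cDNA for array hybridisation, per the labels' protocols. The authors deposited 1 table of log2 expression values for 8 arrays, made with RMA (robust multi-array average), per the submitters' processing notes. Which RMA version, which array genome build and which rescaling, if any, were used is information not given in the sources used here. Values reach 18.91, and log base 2 was taken from the use of RMA. The number of arrays, 1 per line and condition, limits the precision.

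Differences, MT-2 minus MT-1, were computed with Python 3.11.15, pandas 2.3.3 and numpy 2.4.6. A probe set counted as measured when it lay above background, the 95th percentile of the 612 negative controls, in both untreated lines. Where it did so in only 1, it also had to exceed the background of the other. It counted as called at a difference of 1 or more. With 1 array per line no test was run. The rule for differences and background was tried on simulated arrays with equal backgrounds, and the other steps were not. Genes were named from 33 lists, and as the 12 largest gaps per direction that were 1 or more in all treated pairs and the 5 largest per direction that were not. The comparison, its rule and the lists were chosen with earlier results of these data known. Alternatives were 3 scalings, the 90th and 99th percentiles, no background rule, a limit of 2, all transcript probe sets, and leaving out each treated pair. Figures were drawn with matplotlib 3.10.9.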

Additional observations from a re-analysis of the deposited data

Results flagged for a closer look

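In 4 genes of the 33 lists or of those named by rank the difference between the lines was 1 or more in the untreated pair and 1 or more in the opposite direction in the combination pair. Glutamine synthetase GLUL differed by at least 4.26 in the untreated pair and by -2.15 in the combination pair, where the level was 11.72 in MT-2 and 13.87 in MT-1. The adhesion molecule ICAM2 differed by 1.71 in the combination pair and by -1.95 in the untreated pair. The cytokine gene IL26 differed by -2.13 or lower in the combination pair and by at least 2.18 in the untreated pair. IRF9, a transcription factor of the interferon response, differed by -1.99 in the combination pair and by at least 1.81 in the untreated pair. Among lists added after values were seen, the sterol synthesis gene DHCR7 differed by 1.25 in the combination pair and by -1.15 in the untreated pair. The difference between the pairs was not tested, since each rests on 1 array per line, and the doses differed between the lines.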

How the results depend on the processing

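The number of probe sets called higher in MT-2, 1043, was 1603 with no background rule and 468 with a limit of 2. The number called lower, 2260, was 1432 after quantile normalization, 1468 with the background at the 99th percentile and 616 with a limit of 2. Of gaps that persisted, 694 higher and 1197 lower, 346 and 708 were left at the 99th percentile, where fewer probe sets are measured, and 725 lower after quantile normalization. Without the OR21, EPZ-6438 or combination pair the persisting gaps numbered 724, 718 and 792 higher and 1253, 1266 and 1522 lower. The median of the chemokine receptors, 0.88, became -1.07 at the 99th percentile, where 6 were measured, 2 higher and 3 lower. All 34 genes named by rank kept their side of the limit under 3 scalings and 2 background levels, as the large gaps they were picked for made likely. Of the listed and named genes, 368 of 412 kept it after quantile normalization and 313 of 338 at the 99th percentile. None of those called in the main setting changed direction under the 5 settings where still measured. Genes within 1 were not checked for a change of sign. The persisting counts under other scalings and the chromosome medians under other settings were added after the data were seen. The 4 pairs were not fitted as a paired design, since the doses differ between the lines.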

Other observations

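The lists, intervals and genes here were chosen after their values were seen, so their counts are descriptions and none was tested. Immediate-early genes, which cells switch on within minutes of a growth or antigen signal, were listed with genes that damp the ERK kinases. Of 21 measured, 16 were higher in MT-2 and 1 lower, where 12.6% and 27.4% of all measured probe sets were, with a median difference of 2.61, and 15 of the 16 were also higher in all treated pairs. The transcription factor JUND lay at 14.33 in MT-2 and 8.48 in MT-1, EGR1 at 13.96 in MT-2 and 8.74 in MT-1, and ATF3 at 12.72 in MT-2 and 7.67 in MT-1. The phosphatase DUSP2 lay at 15.27 in MT-2 and 10.30 in MT-1. IER5 was lower, with a difference of -1.47, and DUSP10 (-0.99 or lower), SPRY2 (-0.34 or lower), FOSL2 (at least 0.83) and JUN (at least 0.36) were not called. The ERK phosphatase DUSP6 was not above background in either line. FOS (7.28 in MT-2 and 5.07 in MT-1) and FOSB (6.21 and 4.75) were not above background in either line, while JUNB differed by 1.86. DUSP4 differed by 2.45 untreated and by 0.15 in the combination pair.

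Of 13 measured lamin, galectin and annexin genes and related surface and matrix genes, 9 were higher in MT-2 and 0 lower. Over all measured probe sets 12.6% were higher and 27.4% lower. Of the 9, 6 were also higher by 1 or more in all treated pairs. The galectin LGALS1 lay at 14.90 in MT-2 and 5.38 in MT-1, LGALS3 at 12.07 in MT-2 and 5.51 in MT-1, and the protease inhibitor TIMP1 at 16.45 in MT-2 and 11.35 in MT-1. Sterol synthesis was split: HMGCS1, which makes the mevalonate precursor, lay at 15.98 in MT-2 and 10.75 in MT-1, and CYP51A1 at 13.16 in MT-2 and 8.44 in MT-1, whereas INSIG1 (-2.45) and LSS (-2.39) were lower. The list also held fatty acid genes. Of 18 measured, 4 were higher and 6 lower, where 12.6% and 27.4% of all measured probe sets were. The 4, HMGCS1, CYP51A1, SREBF1 and the fatty acid desaturase FADS2, were higher in every pair. Of the 6, 0 were lower in every treated pair. The list's median was -0.17 and turned to 0.23 after quantile normalization. In glycogen metabolism the synthase GYS1 lay at 14.54 in MT-2 and 8.29 in MT-1, while its primer glycogenin GYG1 lay at 7.84 in MT-2 and 12.75 in MT-1.

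Neighbouring genes differed together in places. In runs of 25 measured genes, the highest median, 1.35, was that of CLIC6 to PDE9A on chromosome 21, with 17 genes higher and 0 lower. The lowest, -1.79, was that of UTP25 to IARS2 on chromosome 1, with 1 higher and 18 lower, and it was -1.49, -1.42 and -1.41 in the OR21, EPZ-6438 and combination pairs. Among the lowest runs of the other chromosomes, PSMG4 to NEDD9 on chromosome 6 (-1.68) and RFTN1 to CCR4 on chromosome 3 (-1.6) came next. BCKDK to FTO on chromosome 16 (-1.51) and CDKN1B to BCAT1 on chromosome 12 (-1.48) followed. CD99 and P2RY8, both among the largest gaps towards MT-1, lie in the pseudoautosomal region of Xp. Of 10 genes of that region on the array, 6 were measured. Of these, 5 were lower in MT-2 and 0 higher, where 27.4% and 12.6% of all measured probe sets were. GTPBP6 stood at -2.41 or lower, PLCXD1 at -1.78 or lower and ZBED1 at -1.12. In the combination pair ZBED1 differed by -0.31 and PLCXD1 did not count as measured. GTPBP6, P2RY8 and CD99 stood there at -1.28, -4.51 and -7.44 or lower. Copy number was not measured, and its part in these runs was not tested.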
